A study of Homo sapiens with 6 samples.

Results

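The genes described here encode the subunits of the mitochondrial respiratory chain and the ATP synthase, from both genomes of the cell. They are the 13 mRNAs of the mitochondrial genome and 88 nuclear protein-coding genes chosen by symbol, 101 of the 40895 genes in the count files. The nuclear genes were those whose symbols begin with NDUFA, NDUFB, NDUFC, NDUFS, NDUFV, UQCR, COX4, COX5, COX6, COX7, COX8, ATP5F1, ATP5M or ATP5P, without the NDUFAF assembly factors, together with SDHA, SDHB, SDHC, SDHD and CYC1. Of the 101 genes, 93 passed the filter on low counts and were tested, all 13 mitochondrial and 80 nuclear ones. The libraries came from A375SM, a melanoma line derived from A375 and selected for metastasis, which the labels give as wild type. In 3 libraries the cells carried a short hairpin RNA against PRAME, a cancer-testis antigen (shPRAME), and in 3 a control hairpin (shCtrl). All 6 libraries share a batch label. The sources used here do not give the hairpin sequences, how many hairpins were used, or whether replicates were separate transductions or separate cultures, so p-values rest on the spread among these libraries, and that spread may be technical.

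Complexes I to IV pass electrons from NADH and succinate to oxygen, and complexes I, III and IV pump protons as they do so. Complex V, the ATP synthase, uses the proton gradient to make ATP. The mitochondrial genome is transcribed as long precursors that are cut into rRNAs, tRNAs and mRNAs, and it encodes core subunits of complexes I, III, IV and V, while all of complex II and most other subunits come from nuclear genes spread over many chromosomes. Subunits of both origins are joined in fixed proportions.

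PRAME itself was at 57.7, 57.8 and 53.8 CPM (counts scaled to a common library total) in shPRAME, against 166, 164 and 165 CPM in shCtrl, a log2 fold change of -1.55 ± 0.031 (standard error; edgeR adjusted p = 4.85e-17). Library totals were 30842788 to 33854545 counts in shPRAME and 31525186 to 34107332 in shCtrl. Of the 15954 genes tested, 74.4% passed the test (edgeR, Benjamini-Hochberg adjusted p under 0.05), 37.7% higher and 36.8% lower in shPRAME, and the median log2 fold change of all genes was 0.01. Any count of members below is to be read against those shares. Of 5 melanocytic genes tested, ERBB3 rose (603 ± 12.3 CPM in shPRAME and 322 ± 4.11 CPM in shCtrl), and GPNMB (183 ± 2.59 CPM in shPRAME and 361 ± 0.705 CPM in shCtrl), S100B (28.2 ± 1.26 CPM in shPRAME and 54.0 ± 0.629 CPM in shCtrl) and MITF (37.7 ± 0.740 CPM in shPRAME and 44.6 ± 1.38 CPM in shCtrl) fell (SD, n = 3 each). SOX10 did not pass (275 ± 1.48 CPM in shPRAME and 266 ± 7.95 CPM in shCtrl), the pigment enzyme TYR had no count and MLANA, PMEL, TYRP1 and DCT stayed under 0.3 CPM on average. Summed levels of 9 fibroblast markers were 88.1 to 95.3 CPM in shPRAME and 112.5 to 116.5 CPM in shCtrl, but 5 of the 7 tested rose and 2 fell. Lower were PDGFRB (17.4 CPM in shPRAME and 64.3 CPM in shCtrl) and FAP (27.0 CPM in shPRAME and 46.1 CPM in shCtrl). COL1A2 was at 21.6 CPM in shPRAME and at 0 in shCtrl, as was DCN in shCtrl, LUM was at 9.89 CPM in shPRAME and 0.010 CPM in shCtrl, COL3A1 at 2.58 CPM in shPRAME and 0.031 CPM in shCtrl, and PDGFRA at 12.3 CPM in shPRAME and 3.72 CPM in shCtrl. Leukocyte markers summed to 72.4 to 74.3 CPM in shPRAME and 43.1 to 45.4 CPM in shCtrl, and all 3 that were tested rose. CD68 held 70.7 CPM in shPRAME and 43.9 CPM in shCtrl. LYZ was at 1.31 CPM in shPRAME and 0.071 CPM in shCtrl, and PTPRC at 0.925 CPM in shPRAME and 0 in shCtrl. Of the leukocyte markers not tested, ITGAM had 0 counts in shPRAME and 9 over the shCtrl libraries, and CD14 had 20 and 22. CD3E and HBB had no count. Keratinocyte markers summed to 23.4 to 24.5 CPM in shPRAME and 29.3 to 30.6 CPM in shCtrl, nearly all KRT10, with KRT1, KRT5 and TP63 at 0, and endothelial markers stayed under 1 CPM. The part of other cell types in the results below was not tested.

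All 13 mitochondrial mRNAs were higher in shPRAME, where 37.7% of all tested genes were, and for each of the 13 all shPRAME libraries lay above all shCtrl libraries, as they did for 38.7% of all genes. Their median log2 fold change was 0.24 and their range 0.09 to 0.57, so no mRNA reached a 1.5-fold difference. Tested against a minimum fold of 1.2 with edgeR, 4 of the 13 passed, all of complex I (MT-ND1, MT-ND2, MT-ND3 and MT-ND6), and 7726 of all genes. The size differed by complex, with medians of 0.37 over the 7 complex I mRNAs, 0.24 for the complex III mRNA, 0.11 over the 3 complex IV mRNAs and 0.19 over the pair of complex V. In bulk RNA a change in cell makeup and a change in RNA per cell cannot be told apart.

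The complex I mRNAs encode membrane subunits of the enzyme that oxidises NADH. MT-ND1 was at 2461, 2513 and 2524 CPM in shPRAME, against 1644, 1621 and 1786 CPM in shCtrl, a log2 fold change of 0.57 ± 0.031 (edgeR adjusted p = 3.00e-11). MT-ND2, the next mRNA on the genome, had 4239, 4374 and 4316 CPM in shPRAME and 3182, 3247 and 3472 CPM in shCtrl (log2 fold change 0.38 ± 0.030). MT-ND3 stood at 455, 446 and 446 CPM in shPRAME and 338, 335 and 355 CPM in shCtrl (0.39 ± 0.025 on the log2 scale). These were the mRNAs with the largest changes of the 13, and the 3 shPRAME libraries lay close together for each. MT-ND4L and MT-ND4, which are read from a shared transcript, rose by log2 fold changes of 0.25 ± 0.026 and 0.22 ± 0.028. MT-ND4 had 6809.9, 6921 and 6900.3 CPM in shPRAME and 5762, 5716 and 6177 CPM in shCtrl, and MT-ND4L 598, 586 and 624 CPM in shPRAME and 497, 505 and 519 CPM in shCtrl. MT-ND5 had 1913, 1938 and 1901 CPM in shPRAME and 1682, 1648 and 1812 CPM in shCtrl, the smallest change of the complex I mRNAs (0.16 ± 0.030; edgeR adjusted p = 1.35e-04). MT-ND6 is encoded on the other strand, next to MT-ND5, and whether the counting used strand is not given in the sources used here, so reads from the opposite transcript may be included. It stood at 374, 357 and 369 CPM in shPRAME and 288, 272 and 291 CPM in shCtrl (0.37 ± 0.028).

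MT-CYB, the cytochrome b of complex III, had 3997, 4037 and 4058 CPM in shPRAME and 3365, 3355 and 3534 CPM in shCtrl, a log2 fold change of 0.24 ± 0.025 (edgeR adjusted p = 2.04e-07). The cytochrome c oxidase mRNAs of complex IV moved least. MT-CO1, the catalytic subunit, was at 10996, 11189 and 11127 CPM in shPRAME and 10110.2, 10198 and 10506 CPM in shCtrl (0.11 ± 0.024; edgeR adjusted p = 3.89e-04). MT-CO2, which takes electrons from cytochrome c, was at 3569, 3658 and 3719 CPM in shPRAME and 3329, 3299 and 3524 CPM in shCtrl (0.11 ± 0.028). MT-CO3, a structural core subunit, was at 4821, 5040.0 and 4879.6 CPM in shPRAME and 4530.1, 4563 and 4759.6 CPM in shCtrl (0.09 ± 0.026; edgeR adjusted p = 0.00571). For all 3 the groups stayed apart, but for MT-CO3 and MT-CO2 the lowest shPRAME and the highest shCtrl library differed by little. Of the ATP synthase mRNAs, MT-ATP8 had 812, 789.8 and 803 CPM in shPRAME and 629.7, 670.4 and 735 CPM in shCtrl (0.24 ± 0.039). MT-ATP6, the subunit that forms the proton path beside the rotor ring, had 4119, 4170.3 and 4169 CPM in shPRAME and 3678, 3663 and 3964 CPM in shCtrl (0.14 ± 0.029; edgeR adjusted p = 3.25e-04).

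**Figure D1:**
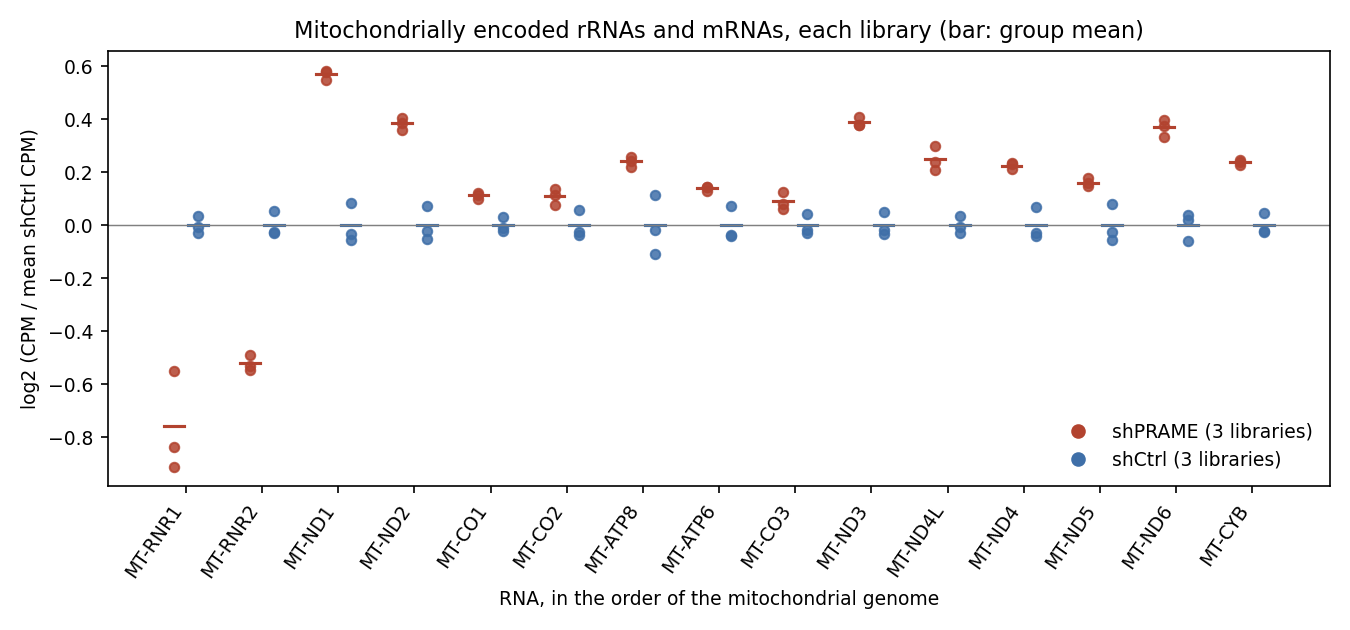
Each library's CPM of the 2 mitochondrial rRNAs and the 13 mRNAs relative to the shCtrl mean, on a log2 scale, in genome order; points are libraries and short bars group means. The shPRAME points lie above all shCtrl points for every mRNA, highest for MT-ND1 (0.57), and below them for both rRNAs (-0.76 and -0.52).

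Because the libraries were made from polyA RNA, the 3′ ends of these mRNAs bear on how they were captured. Only the ends of the annotated coding sequences are known here, and a mature mRNA may run on past its stop. The presence and length of a poly(A) tail on each mRNA, MT-ND6 among them, were not measured. The part of capture in their levels was not tested. In 6 of the 13 the encoded coding sequence stops inside its last codon and the poly(A) tail completes the stop, and in 7 the stop is encoded whole. The last 21 bases of the coding sequences of 4 mRNAs are given 5′ to 3′ from GENCODE 29 on GRCh38, with the encoded stop bases in capitals. They are the mRNA with the largest change, the one with the smallest, the one with the highest level per length and the one on the opposite strand.
MT-ND1, chrM:3307-4262, plus strand: cagcattccccctcaaaccTA
MT-CO3, chrM:9207-9990, plus strand: ccatctattgatgagggtctT
MT-CO1, chrM:5904-7445, plus strand: cccgtatacataaaatctAGA
MT-ND6, chrM:14149-14673, minus strand: gagattgctcgggggaatAGG
The mRNAs with an incomplete stop were MT-ND1, MT-ND2, MT-CO3, MT-ND3, MT-ND4 and MT-CYB, so both the largest and the smallest change of the 13 lay in that class. MT-ATP8 and MT-ATP6 share 46 bases, and the reads that fall there cannot be given to either gene alone. The shared stretch, chrM:8527-8572 on the plus strand, has the MT-ATP6 start and the MT-ATP8 stop in capitals.
MT-ATP8 and MT-ATP6: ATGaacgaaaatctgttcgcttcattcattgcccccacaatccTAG

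The mitochondrial rRNAs, which are cut from the same precursors and form the RNA of the mitochondrial ribosome, went the other way. MT-RNR1, the rRNA of the small subunit, was at 907, 743 and 706 CPM in shPRAME and 1323, 1302 and 1359.7 CPM in shCtrl, a log2 fold change of -0.76 ± 0.060 (edgeR adjusted p = 3.77e-09). MT-RNR2, that of the large subunit, was at 4056, 3943 and 3902 CPM in shPRAME and 5593, 5583 and 5911 CPM in shCtrl (-0.52 ± 0.027; edgeR adjusted p = 1.45e-11). All shPRAME libraries lay below all shCtrl libraries for both. The ratio of mitochondrial rRNA to mRNA counts was 0.110, 0.102 and 0.101 in shPRAME, against 0.177, 0.176 and 0.175 in shCtrl. No library of either group came near the other. Nuclear rRNA, which carries no long poly(A) tail, took 3.14%, 2.30% and 2.06% of counts in shPRAME, against 4.87%, 4.99% and 4.61% in shCtrl. These libraries were enriched for polyA RNA, and the part of rRNA carry-over in the rRNA values, or in the mRNA values beside them, was not tested.

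Mitochondrial mRNA took 4.57%, 4.69% and 4.67% of all counts in shPRAME and 3.87%, 3.82% and 4.05% in shCtrl. Within that mRNA the makeup differed between the groups, though not alike for all mRNAs of a complex. MT-ND1 made up 5.47% ± 0.030 of mitochondrial mRNA counts in shPRAME and 4.22% ± 0.082 in shCtrl (SD, n = 3 each), and MT-ND2 made up 9.43% ± 0.062 in shPRAME and 8.28% ± 0.117 in shCtrl. MT-CO1 made up 24.3% ± 0.035 in shPRAME and 25.8% ± 0.380 in shCtrl, and MT-CO3 10.8% ± 0.169 in shPRAME and 11.6% ± 0.093 in shCtrl. The count ratio of MT-ND1 to MT-CO1 was 0.224, 0.225 and 0.227 in shPRAME, against 0.163, 0.159 and 0.170 in shCtrl. Count ratios between genes, here and below, are not divided by length, so only their difference between groups is read. No library of one group reached the other in the shares of MT-ND1, MT-ND2, MT-CO1 and MT-CO3 or in the MT-ND1 to MT-CO1 ratio. Such shares do not depend on how libraries are scaled to each other.

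Set against the nuclear mRNAs of the same complex, mitochondrial mRNA stood higher in shPRAME in every complex that has both. Summed CPM of mitochondrial over nuclear members of complex I was 9.81, 9.93 and 9.79 in shPRAME, against 7.55, 7.36 and 8.09 in shCtrl. In complex III the ratio was 5.69, 5.72 and 5.70 in shPRAME, against 4.67, 4.61 and 4.90 in shCtrl. In complex IV it was 25.0, 25.6 and 25.0 in shPRAME, against 22.1, 21.7 and 23.0 in shCtrl. Cytochrome c oxidase had the smallest difference between the groups on the log2 scale. The ATP synthase, with 2 mitochondrial mRNAs, had ratios of 2.48, 2.48 and 2.49 in shPRAME and 1.99, 1.96 and 2.18 in shCtrl. On the log2 scale the ratio of group means differed by 0.36 in complex I, 0.27 in complex III, 0.18 in complex IV and 0.28 in complex V, and by 0.28 over all members, where it averaged 8.31 ± 0.069 in shPRAME and 6.84 ± 0.280 in shCtrl (SD, n = 3 each). Most of this came from the mitochondrial sums, whose log2 changes were 0.31, 0.24, 0.11 and 0.16 in complexes I, III, IV and V, while the nuclear sums changed by -0.05, -0.03, -0.07 and -0.13. Complex II, all nuclear, summed to 291.7, 278.8 and 291.2 CPM in shPRAME and 319.8, 319.1 and 319.9 CPM in shCtrl. The ratios are descriptions of these libraries, with no test over the members.

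**Figure D2:**
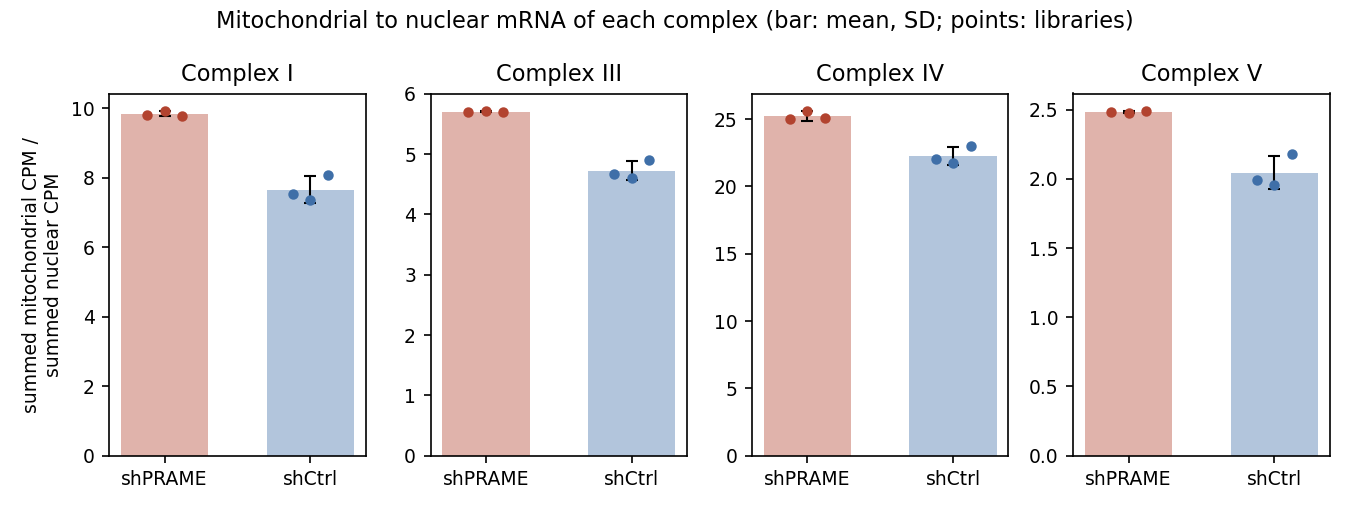
Summed CPM of mitochondrial members divided by summed CPM of nuclear members of the same complex; bars are group means with SD, points the 3 libraries, and each panel has its own axis from 0. In every panel all shPRAME libraries lie above all shCtrl libraries, in complex I at 9.79 to 9.93 in shPRAME, against 7.36 to 8.09 in shCtrl.

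The nuclear members did not move as a group. Of the 80 tested, 23 rose, 40 fell and 17 did not pass, so that 78.75% were called, against 74.4% of all genes and 78.1% of protein-coding genes (39.8% higher and 38.3% lower). The share called is thus near the background, and the split leaned to lower values, with a median log2 fold change of -0.10 against 0.01 over all genes. With libraries scaled by their totals alone, 29 were called higher and 34 lower, the median of all genes moved to 0.06 and that of the nuclear members to -0.05. All shPRAME libraries lay above all shCtrl libraries for 26 members and below them for 39, and the groups overlapped for 15 (for all genes 38.7% lay above and 37.8% below). Against a minimum fold of 1.2 with edgeR, 9 were called higher and 19 lower. The largest rise, that of COX6C, was under 1.5-fold, which 16.6% of all genes passed, and 5 members fell by at least that much, where 16% of all genes did: ATP5MC3, NDUFV3, ATP5PO, ATP5PF and SDHB. Many nuclear respiratory chain genes have processed pseudogenes, and how reads shared with such copies were counted is not given in the sources used here.

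Complex I had 37 nuclear members tested, of which 9 rose, 19 fell and 9 did not pass. The nuclear core subunits carry the flavin and the iron-sulfur clusters. NDUFV2, a core subunit with an iron-sulfur cluster, was at 85.3, 87.7 and 90.1 CPM in shPRAME and 68.7, 67.6 and 67.0 CPM in shCtrl (0.37 ± 0.031 on the log2 scale; edgeR adjusted p = 8.06e-09). It was higher in all 3 shPRAME libraries. The core subunits NDUFV1, NDUFS1, NDUFS3 and NDUFS7 fell, with log2 fold changes of -0.11, -0.15, -0.23 and -0.43, and NDUFS8 did not pass (-0.05 ± 0.057). The readthrough gene NDUFC2-KCTD14 had 21 counts over the shPRAME libraries and 10 over the shCtrl libraries and was not tested. Among 30 accessory subunits tested, 7 rose and 15 fell. NDUFA13 was at 53.2, 54.0 and 54.8 CPM in shPRAME and 42.5, 44.5 and 39.8 CPM in shCtrl (0.35 ± 0.040). NDUFB9 had 179.6, 176 and 180.4 CPM in shPRAME and 142, 154 and 143 CPM in shCtrl (0.29 ± 0.030). Both stood higher in every shPRAME library. The accessory subunits with the largest falls were NDUFV3, NDUFB3 and NDUFA1. NDUFV3, a subunit of the NADH-oxidising module (chromosome 21, 42893309 to 42913299, GRCh38), was at 25.0, 26.9 and 24.0 CPM in shPRAME and 49.3, 51.3 and 52.5 CPM in shCtrl (-1.01 ± 0.046; edgeR adjusted p = 1.97e-12). NDUFB3 was at 23.6, 23.3 and 23.4 CPM in shPRAME and 33.8, 35.0 and 36.5 CPM in shCtrl (-0.58 ± 0.046). NDUFA1 was at 22.2, 23.8 and 24.0 CPM in shPRAME and 35.3, 34.9 and 34.1 CPM in shCtrl (-0.58 ± 0.046). Subunits of the same module thus moved apart, and the count ratio of NDUFV2 to NDUFV3 was 3.41, 3.26 and 3.75 in shPRAME, against 1.39, 1.32 and 1.28 in shCtrl.

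Complex II, succinate dehydrogenase, links the tricarboxylic acid cycle to the chain. SDHB, its iron-sulfur subunit (chromosome 1, 17018722 to 17054032), was at 51.8, 52.0 and 54.1 CPM in shPRAME and 83.4, 86.9 and 85.6 CPM in shCtrl, a log2 fold change of -0.70 ± 0.032 (edgeR adjusted p = 3.01e-12). SDHA, the flavoprotein that oxidises succinate, was at 75.3, 69.6 and 74.0 CPM in shPRAME and 82.6, 78.7 and 78.2 CPM in shCtrl (-0.13 ± 0.035; edgeR adjusted p = 0.00295). It no longer passed with libraries scaled by their totals alone, at a log2 fold change of -0.08. The membrane anchors did not pass: SDHC was at 129.9, 125 and 130.3 CPM in shPRAME and 125, 122 and 123 CPM in shCtrl (edgeR adjusted p = 0.0817). SDHD was at 34.7, 32.7 and 32.8 CPM in shPRAME and 29.4, 31.1 and 32.8 CPM in shCtrl (edgeR adjusted p = 0.0609), and its groups met at 32.8 CPM. Both anchors passed as higher when scaled by totals alone, at 0.11 for SDHC and 0.15 for SDHD. SDHB, the subunit with the clear difference, was lower in every shPRAME library. The count ratio of SDHB to SDHA was 0.688, 0.746 and 0.731 in shPRAME, against 1.01, 1.10 and 1.09 in shCtrl.

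In complex III, which passes electrons from ubiquinol to cytochrome c, 5 of 10 nuclear members rose and 5 fell. UQCRB, a small subunit beside the quinone site, was at 143, 149 and 146 CPM in shPRAME and 113, 114 and 118 CPM in shCtrl (0.34 ± 0.028; edgeR adjusted p = 8.11e-09). CYC1, the cytochrome c1 heme protein, was at 106, 109.6 and 109 CPM in shPRAME and 91.0, 86.2 and 84.5 CPM in shCtrl (0.31 ± 0.032). UQCR10, a small subunit, was at 19.1, 19.0 and 20.0 CPM in shPRAME and 17.2, 16.8 and 15.9 CPM in shCtrl (0.21 ± 0.057). These 3 were higher in all shPRAME libraries. The core proteins, which form a large matrix domain as partners, had opposite directions before the neighbours' shift (described below) was removed. UQCRC1 was at 91.9, 92.3 and 93.4 CPM in shPRAME and 121, 126 and 119 CPM in shCtrl (-0.40 ± 0.029; edgeR adjusted p = 1.05e-09). UQCRC2 was at 80.0, 77.8 and 76.5 CPM in shPRAME and 70.7, 71.6 and 72.0 CPM in shCtrl (0.13 ± 0.030), and with that shift removed it was lower (-0.15; edgeR adjusted p = 3.58e-04), as UQCRC1 still was (-0.30). Neither pair of groups overlapped. UQCRFS1, the Rieske iron-sulfur protein, fell by 0.17 on the log2 scale, and UQCRH, the hinge protein, had 114, 112 and 117 CPM in shPRAME and 146, 152 and 152 CPM in shCtrl (-0.39 ± 0.028). UQCRHL is a near-identical copy of UQCRH, so its call (-0.33 ± 0.14; edgeR adjusted p = 0.0385) is uncertain. Its groups overlapped, and the call was lost with DESeq2 (-0.33), with the replicate block (-0.33) and when libraries were scaled by totals alone (-0.28). It was also lost without shPRAME replicate 2 (-0.33) or 3 (-0.20) and without shCtrl replicate 2 (-0.37) or 3 (-0.22).

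In complex IV, 11 of 17 nuclear genes were tested, of which 2 rose, 6 fell and 3 did not pass. COX6C was at 88.9, 89.6 and 91.6 CPM in shPRAME and 65.0, 66.8 and 64.6 CPM in shCtrl (0.46 ± 0.030; edgeR adjusted p = 2.97e-10). COX7A2L, known as a supercomplex assembly factor, was at 65.1, 65.1 and 65.2 CPM in shPRAME and 58.6, 60.5 and 59.8 CPM in shCtrl (0.13 ± 0.031). COX7B was at 32.6, 32.0 and 35.3 CPM in shPRAME and 48.1, 50.2 and 50.0 CPM in shCtrl (-0.57 ± 0.042; edgeR adjusted p = 1.63e-09). COX6C and COX7B, both small membrane subunits, moved apart, with a count ratio of 2.73, 2.80 and 2.60 in shPRAME, against 1.35, 1.33 and 1.29 in shCtrl. COX5B, a zinc-binding subunit, was at 39.7, 40.0 and 37.9 CPM in shPRAME and 53.0, 55.2 and 51.3 CPM in shCtrl (-0.44 ± 0.039). COX7A2 was at 61.1, 64.5 and 62.1 CPM in shPRAME and 76.7, 79.4 and 79.0 CPM in shCtrl (-0.32 ± 0.032). COX6B1 was at 67.2, 69.5 and 67.3 CPM in shPRAME and 78.3, 81.3 and 79.2 CPM in shCtrl (-0.23 ± 0.031). These 3 were lower in all shPRAME libraries. COX4I1, the regulatory subunit that binds ATP, was nearly level, at 165, 168 and 165 CPM in shPRAME and 165, 168 and 166 CPM in shCtrl (-0.004 ± 0.024; edgeR adjusted p = 0.887). COX6A1 and COX8A did not pass either (0.04 ± 0.031 and 0.05 ± 0.037). With the neighbours' shift (described below) removed, COX4I1 was lower (-0.14) and COX6A1 and COX8A were higher (0.09 and 0.13). Complex IV is the complex with tissue-specific isoforms, and only the widely used one of each pair gave reads in number. COX4I2, COX6A2, COX7A1 and COX8C had 0 counts in all 6 libraries, which allows levels of up to 3 counts, or 0.0869 to 0.0973 CPM by library (counting error only). COX6B2 had 1 count over the shPRAME libraries and 3 over the shCtrl libraries, and COX7B2 had 0 counts in shPRAME and 7 in shCtrl. COXFA4, the complex IV subunit long called NDUFA4, is outside the symbol rule under its present name. It was at 126, 128 and 127 CPM in shPRAME and 91.2, 96.3 and 93.4 CPM in shCtrl (0.44 ± 0.029; edgeR adjusted p = 3.28e-10), while its paralogue COXFA4L2 stayed under 0.4 CPM and did not pass.

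Complex V had 18 nuclear genes tested, of which 7 rose, 8 fell and 3 did not pass, 1 of them the readthrough gene ATP5MF-PTCD1 (0.92 ± 0.58). ATP5MGL, with 8 counts over the shPRAME libraries and 3 over the shCtrl libraries, was not tested. In the F1 head, where ATP is made, the alternating α and β subunits moved apart. ATP5F1A (α) was at 401, 405 and 403 CPM in shPRAME and 319.7, 330.5 and 323 CPM in shCtrl (0.31 ± 0.022; edgeR adjusted p = 9.92e-10). ATP5F1B (β) was at 614, 619.8 and 610.4 CPM in shPRAME and 725, 732 and 705 CPM in shCtrl (-0.23 ± 0.023; edgeR adjusted p = 8.12e-08). Their count ratio was 0.653, 0.654 and 0.660 in shPRAME, against 0.441, 0.452 and 0.458 in shCtrl. ATP5F1A was named after its values were seen. ATP5F1E, the ε subunit of the central stalk, was at 80.8, 84.5 and 81.7 CPM in shPRAME and 61.8, 64.2 and 59.4 CPM in shCtrl (0.41 ± 0.034). The peripheral stalk, which holds the head still against the rotor, fell in 3 of its 4 genes and rose in ATP5PD, and its summed level was 304.4, 310.6 and 308.3 CPM in shPRAME, against 397.4, 404.0 and 407.8 CPM in shCtrl. ATP5PO, the link between stalk and head (chromosome 21, 33903453 to 33915804), was at 45.2, 46.6 and 47.4 CPM in shPRAME and 90.4, 89.3 and 90.0 CPM in shCtrl (-0.95 ± 0.031; edgeR adjusted p = 2.90e-14). ATP5PF, another stalk subunit (chromosome 21, 25724500 to 25735653), was at 42.0, 42.7 and 41.1 CPM in shPRAME and 76.1, 81.9 and 80.6 CPM in shCtrl (-0.92 ± 0.036; edgeR adjusted p = 3.01e-13).

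The c-ring of the rotor is built from copies of a protein that 3 genes encode with the same mature sequence. ATP5MC3 (chromosome 2, 175176258 to 175181710) was at 43.6, 41.8 and 40.6 CPM in shPRAME and 85.2, 88.5 and 86.5 CPM in shCtrl, the largest change of any nuclear member that passed (-1.05 ± 0.035; edgeR adjusted p = 3.03e-14). ATP5MC2 was at 77.0, 80.5 and 84.1 CPM in shPRAME and 71.7, 75.6 and 71.6 CPM in shCtrl (0.14 ± 0.036). ATP5MC1 was at 30.7, 30.4 and 29.6 CPM in shPRAME and 26.4, 26.1 and 29.2 CPM in shCtrl (0.15 ± 0.050; edgeR adjusted p = 0.0117), a call that was lost without shCtrl replicate 2 (0.12). The makeup of the set therefore differed between the groups. ATP5MC3 counts were 0.566, 0.520 and 0.483 of those of ATP5MC2 in shPRAME, against 1.19, 1.17 and 1.21 in shCtrl. Summed over the 3 genes, c-ring mRNA was at 151.3, 152.7 and 154.3 CPM in shPRAME and 183.3, 190.2 and 187.3 CPM in shCtrl. Of the small membrane subunits, ATP5MG was at 63.1, 65.0 and 63.0 CPM in shPRAME and 48.0, 48.8 and 44.5 CPM in shCtrl (0.43 ± 0.038). ATP5ME was at 30.1, 29.8 and 30.3 CPM in shPRAME and 21.9, 22.4 and 22.6 CPM in shCtrl (0.43 ± 0.045), but its neighbours had a median of 0.54, and with that removed it was lower (-0.11; edgeR adjusted p = 0.0397). ATP5MF and ATP5MK fell, by 0.44 and 0.10 on the log2 scale, and ATP5MJ did not pass.

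**Figure D3:**
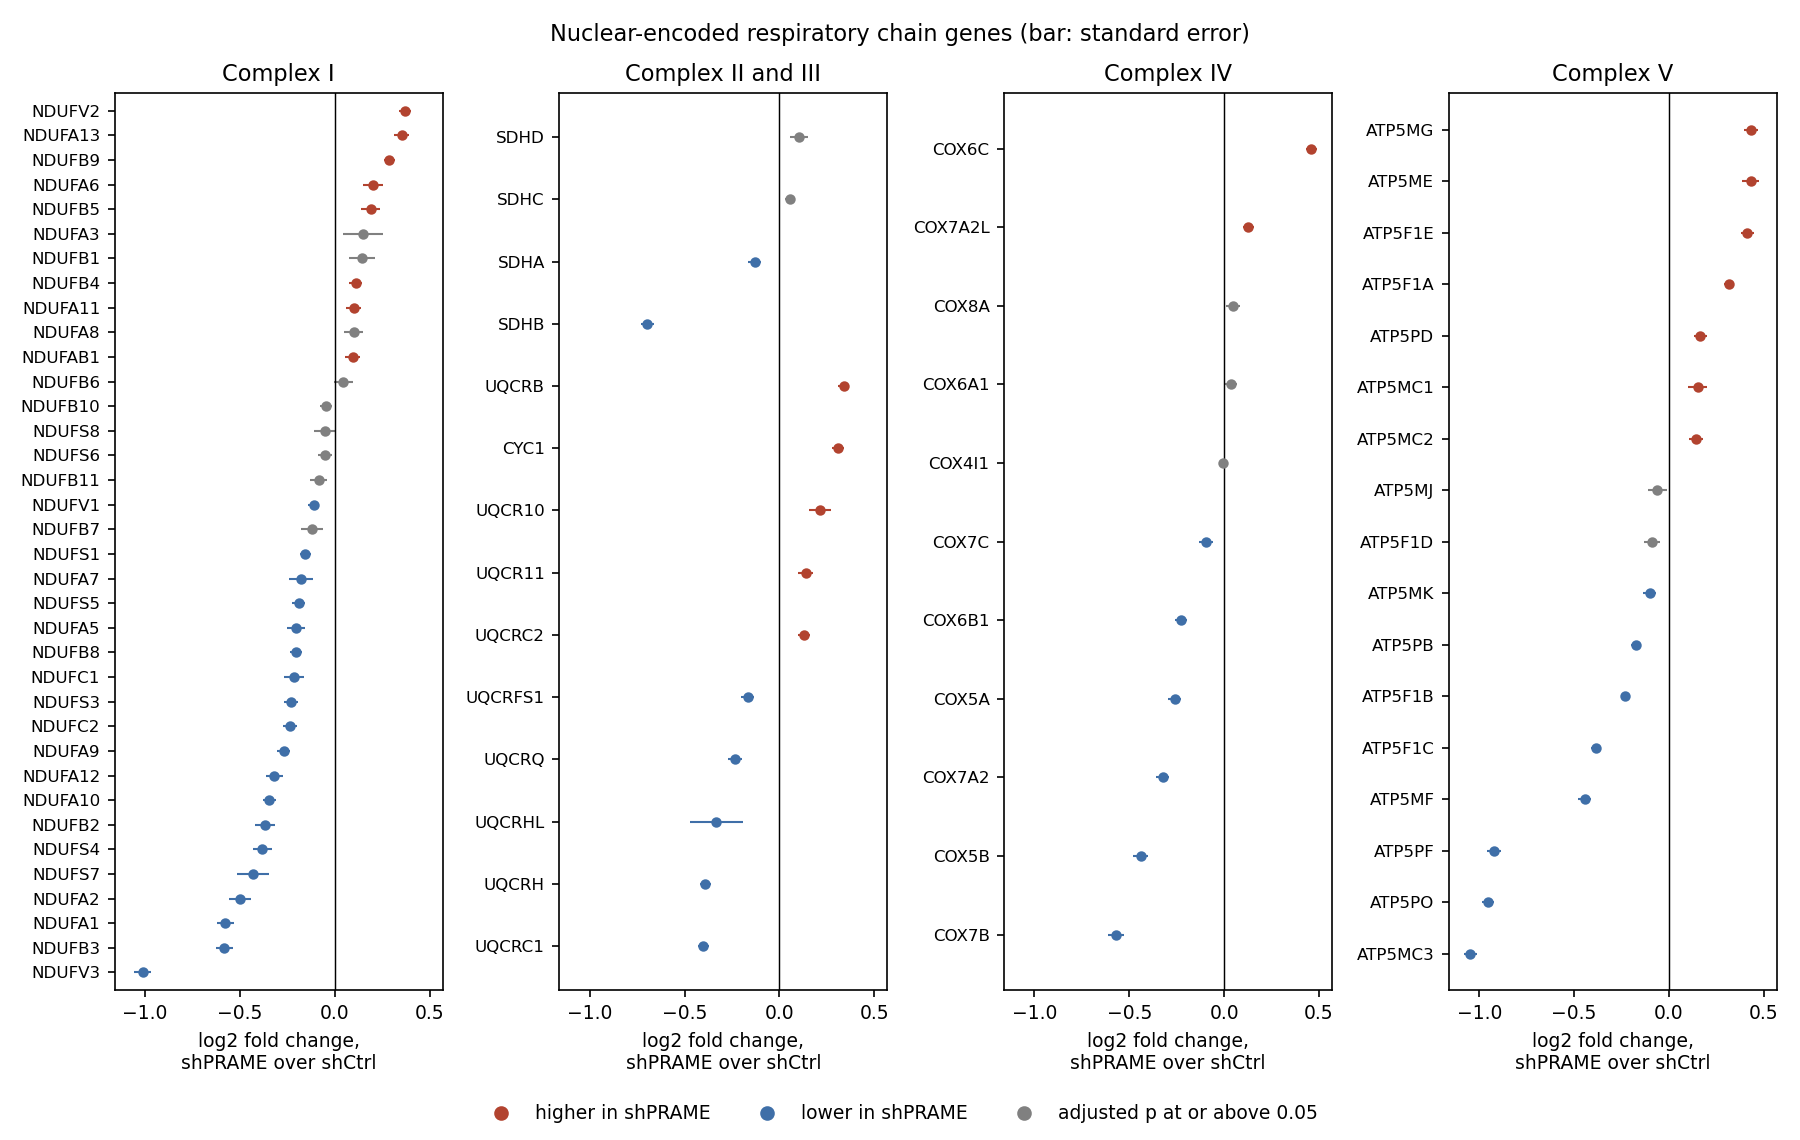
Log2 fold change of shPRAME over shCtrl with its standard error for 78 of the 80 tested nuclear members, by complex (the readthrough gene ATP5MF-PTCD1 is among those not drawn); colour gives the result of the edgeR test. Every complex other than II holds members that rose and members that fell, from ATP5MC3 at -1.05 to COX6C at 0.46.

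Nuclear members mostly had the direction of the other genes in their stretch of chromosome. For each member the median log2 fold change of the tested genes within 5 Mb was taken, the member left out (22 to 224 neighbours, median 70.5). Member and neighbours had the same sign for 67 of 80 members (83.75%) and for 56 of the 63 that passed the test. Across the 80 members Pearson's r was 0.76 and Spearman's rho 0.78, a description of genes measured in the same 6 libraries, some with shared neighbours. Over 15820 other nuclear genes the same sign was found for 65.0%, with r of 0.20 and rho of 0.35, and those genes also varied more (SD of log2 fold change 1.44, against 0.356 for the members).

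Chromosome 21 carried ATP5PF, ATP5PO and NDUFV3, all lower, with a median of -0.95, where the other 195 tested genes of the chromosome had a median of -0.81. COX6C, CYC1, NDUFB9 and UQCRB, all higher, lie on chromosome 8, with a median of 0.32 against 0.30 for the other 579 genes. Both members on chromosome 18, ATP5F1A and NDUFV2, were higher (median 0.34, other genes 0.40), and on the X chromosome COX7B and NDUFA1 were lower and NDUFB11 did not pass (median -0.57, other genes -0.34). NDUFV2 on chromosome 18 and NDUFV3 on chromosome 21, partners in 1 module, each had the direction of their chromosome. On some other chromosomes members and other genes lay apart, with medians of -0.39 and -0.11 on chromosome 2 and of 0.11 and 0.45 on chromosome 4. On chromosome 12 they were -0.23 and -0.001. What moved whole regions was not tested.

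When the neighbours' median was removed from each gene as an offset in the edgeR fit, 18 nuclear members were called higher and 31 lower (36.2% and 35.1% of all genes). By complex, 8 were higher and 14 lower in complex I, 1 and 3 in complex II, and 2 and 3 in complex III. In complex IV 5 were higher and 3 lower, where 2 had risen and 6 fallen before. In complex V 2 were higher and 8 lower. Of the 63 members that had passed, 31 kept direction and call, 23 no longer passed and 9 turned. ATP5MC3 stood furthest below its neighbours, at -1.05 where they had a median of -0.21, and stayed lower (-0.84; edgeR adjusted p = 7.24e-13). SDHB also stayed lower (-0.41; edgeR adjusted p = 4.61e-09), as did NDUFA2 (-0.42), NDUFA12 (-0.37), NDUFC1 (-0.37) and UQCRC1 (-0.30). The chromosome 21 genes kept a small difference, -0.19 for ATP5PF, -0.13 for ATP5PO and -0.11 for NDUFV3. NDUFA13 (0.35) and ATP5F1E (0.25) stayed higher, and COX6C, the member with the largest rise, kept a small difference (0.07; edgeR adjusted p = 0.0397). NDUFB9 rose by 0.29 where its neighbours had a median of 0.86, and was lower once that was removed (-0.57; edgeR adjusted p = 2.29e-11). NDUFAB1 (-0.21), UQCRC2 (-0.15) and ATP5ME (-0.11) also turned to lower. SDHA (0.27), NDUFS5 (0.22), NDUFA10 (0.11), UQCRQ (0.17) and COX7C (0.19) turned to higher. Of the members that had not passed, 5 were then lower, among them SDHC (-0.10), SDHD (-0.29) and COX4I1 (-0.14). Another 4 were then higher, among them COX8A (0.13) and COX6A1 (0.09). No longer passing were NDUFV2, ATP5F1A, ATP5MG, COX7B, COX5B, NDUFA1, UQCRB, CYC1 and UQCRH, among others. The mitochondrial mRNAs have no such neighbours and their values do not change.

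**Figure D4:**
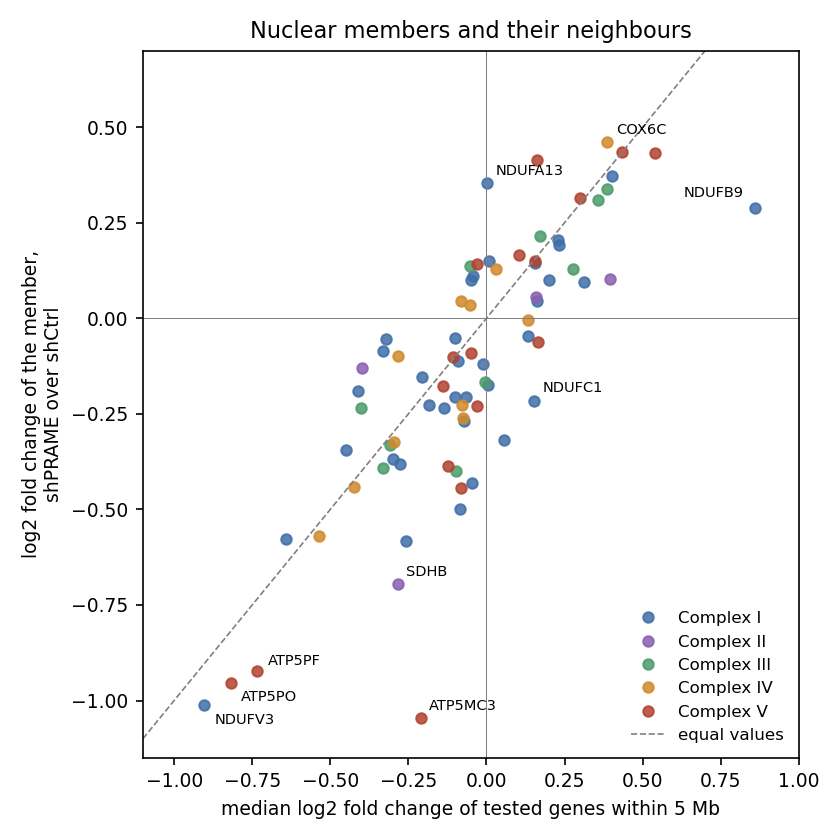
Log2 fold change of 78 of the 80 tested nuclear members against the median log2 fold change of the tested genes within 5 Mb of it; colours give the complex and the dashed line marks equal values. Most points lie along the line (67 of 80 members share their neighbours' sign), with ATP5MC3 and SDHB below it and NDUFB9 far to the right of it.

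Promoter sequences of RefSeq (GRCh38.p14, 250 bases before to 50 after the start) were found for 70 of the 88 nuclear members, 65 of them tested. They were searched on both strands for motifs of factors known to drive respiratory chain genes: GCGCA, any base and GCGC for NRF1, CCGGAAG for GABPA and AAGATGGC for YY1. The GABPA motif ends with the letters with which the YY1 motif begins, so their matches can overlap. The NRF1 motif was in 24.6% of the 65 promoters and in 8.58% of 15843 protein-coding promoters, the GABPA motif in 30.8% of the members' and 14.2% of all, and the YY1 motif in 16.9% of the members' and 3.91% of all. Any of them was in 9 of 17 promoters of members that rose, 21 of 34 of members that fell and 8 of 14 that did not pass. The YY1 motif alone was in 1 of 17 promoters of members that rose, 9 of 34 of members that fell and 1 of 14 that did not pass, counts for which no test was made. The promoters of SDHB, which fell beyond its neighbours, and NDUFA13, which rose beyond its neighbours, are shown 5′ to 3′ on the strand of the gene with the motif matches in capitals.
SDHB, chr1:17053983-17054282, minus strand: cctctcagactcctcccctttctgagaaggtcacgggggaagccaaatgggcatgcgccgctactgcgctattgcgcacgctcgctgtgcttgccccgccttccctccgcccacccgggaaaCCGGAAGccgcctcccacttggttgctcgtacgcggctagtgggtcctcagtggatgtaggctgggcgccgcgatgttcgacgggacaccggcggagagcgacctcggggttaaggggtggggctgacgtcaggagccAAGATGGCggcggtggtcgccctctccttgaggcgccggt
NDUFA13, chr19:19515975-19516274, plus strand: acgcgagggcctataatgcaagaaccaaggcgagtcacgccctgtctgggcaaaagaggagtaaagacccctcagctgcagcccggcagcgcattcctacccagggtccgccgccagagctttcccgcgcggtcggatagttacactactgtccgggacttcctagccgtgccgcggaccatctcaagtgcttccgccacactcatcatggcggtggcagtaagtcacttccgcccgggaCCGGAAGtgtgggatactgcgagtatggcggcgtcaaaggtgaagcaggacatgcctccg
SDHB has the GABPA and the YY1 letters and NDUFA13 the GABPA letters, so these members, which moved in opposite directions, share a motif. The promoters of NDUFA2, which also fell beyond its neighbours, and of ATP5F1E, which also rose beyond its neighbours, had no match to any of the motifs. A match describes these letters and no more.

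Per kilobase of transcript the genomes lay apart in level. Among nuclear members the highest level per length was that of ATP5F1B, 334.3 CPM per kb in shPRAME and 391.9 in shCtrl, followed in other complexes by NDUFB9 (251.3 in shPRAME and 205.7 in shCtrl), COX4I1 (232.0 in shPRAME and 232.7 in shCtrl), UQCRH (189.2 in shPRAME and 248.1 in shCtrl) and SDHB (45.6 in shPRAME and 73.9 in shCtrl). The lowest mitochondrial mRNA per length, MT-ND6, was at 698.6 CPM per kb in shPRAME and 540.8 in shCtrl, and the highest, MT-CO1, at 7201 in shPRAME and 6661 in shCtrl. Every mitochondrial mRNA thus exceeded every nuclear member per length in both groups. Median lengths of principal GENCODE 29 transcripts stood in for the isoforms the cells use, which are not known here.

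Of 16 genes for mitochondrial transcription, replication and its regulators, 6 rose, 4 fell and 6 did not pass (median -0.02). TFAM, which packages and starts transcription of mitochondrial DNA, was at 119 ± 2.07 CPM in shPRAME and 100.2 ± 5.20 CPM in shCtrl (SD, n = 3 each; log2 fold change 0.25; edgeR adjusted p = 4.96e-06). POLRMT, the mitochondrial RNA polymerase, averaged 48.3 ± 0.971 CPM in shPRAME and 51.6 ± 3.66 CPM in shCtrl and did not pass. TFB1M, which methylates the small-subunit rRNA, averaged 78.5 ± 2.61 CPM in shPRAME and 205 ± 6.60 CPM in shCtrl (SD, n = 3 each; log2 fold change -1.39; edgeR adjusted p = 2.30e-16). The helicase TWNK and the exonuclease MGME1, both of mitochondrial DNA maintenance, rose by 0.63 and 0.63.

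Among 24 genes for mitochondrial RNA processing and stability, 11 rose and 8 fell (median 0.09). LRPPRC and SLIRP, which together stabilise mitochondrial mRNAs, rose by 0.11 and 0.15 on the log2 scale, and with the neighbours' median removed LRPPRC no longer passed and SLIRP was lower (-0.10). PNPT1, a mitochondrial RNA exonuclease, averaged 127 ± 1.95 CPM in shPRAME and 93.1 ± 3.29 CPM in shCtrl (0.45), and REXO2, an oligoribonuclease, averaged 49.3 ± 1.49 CPM in shPRAME and 30.8 ± 0.857 CPM in shCtrl (0.68). Of 12 tested regulators of mitochondrial biogenesis, 9 rose and 2 fell, with a median of 0.33 against 0.01 for all genes. MYC averaged 76.1 ± 1.03 CPM in shPRAME and 18.2 ± 0.557 CPM in shCtrl, the largest change among the expressed ones (2.07; edgeR adjusted p = 1.61e-17). NRF1, a factor of respiratory chain promoters, rose by 0.25. GABPA, the DNA-binding part of another such factor, fell by 0.39 and was higher with its neighbours' median removed (0.35), while its partner GABPB1 rose by 0.38. Of the coactivators, PPARGC1B fell by 0.26 but did not pass with its neighbours' median removed, and PPARGC1A rose but stayed at 0.619 ± 0.0182 CPM in shPRAME and 0.162 ± 0.116 CPM in shCtrl. ESRRA did not pass.

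Mitochondrial ribosomal proteins were split, with 31 of 77 higher, 25 lower and a median of 0.00. MRPS30 averaged 65.7 ± 1.40 CPM in shPRAME and 36.1 ± 0.125 CPM in shCtrl (0.86), and MRPS6, on chromosome 21, 129 ± 2.26 CPM in shPRAME and 212 ± 5.04 CPM in shCtrl (-0.72). With the neighbours' median removed MRPS6 was higher (0.13), and 34 mitochondrial ribosomal proteins were higher and 16 lower. Of 14 translation factors 6 rose and 6 fell, and with that median removed 5 were higher and 3 lower. Assembly factors were as mixed: 9 rose and 7 fell of 20 for complex I, 3 and 3 of 9 for complex III, 9 and 4 of 27 for complex IV (11 and 7 with that median removed), 4 and 2 of 8 for the ATP synthase, while for complex II all 4 had an edgeR adjusted p above 0.05, with log2 fold changes from -0.10 to 0.23. FOXRED1, a complex I assembly factor, averaged 25.6 ± 0.215 CPM in shPRAME and 44.2 ± 0.294 CPM in shCtrl (-0.79). COA3, which acts on newly made MT-CO1 protein, averaged 36.1 ± 2.00 CPM in shPRAME and 19.8 ± 1.14 CPM in shCtrl (0.86). ATP5IF1, the inhibitor of the ATP synthase, averaged 25.8 ± 1.67 CPM in shPRAME and 39.9 ± 0.264 CPM in shCtrl (-0.63). Of 20 genes for electron carriers, coenzyme Q synthesis and supercomplexes, 6 rose and 9 fell, among them COQ8B (-0.98) and DHODH (0.54). Of 18 genes of the tricarboxylic acid cycle, 5 rose and 8 fell, from PDHA1 (-0.52) to IDH2 (0.70).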

How the data were processed

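The authors deposited a table of raw gene counts for each library, keyed by NCBI gene identifier and without normalization, per the file headers. PolyA RNA was sequenced as read pairs of 150 bases, per the labels' protocols. The submitters' processing notes name fastp, STAR, Salmon, GRCh38 and hg38. Not given in the sources used here are the counting tool, the annotation and the use of strand.

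Repeated identifiers (34 rows of 40929) were added, and 40789 of 40895 genes matched RefSeq GRCh38.p14. edgeR 4.0.16 in R 4.3.3 was run on all 6 libraries (filterByExpr, TMM scaling, quasi-likelihood test, group as the only term, two-sided), with Benjamini-Hochberg adjustment over 15954 genes and calls at adjusted p under 0.05. The fit was tested on simulated data. The standard error is the log2 fold change divided by the square root of F. Levels are CPM on TMM-scaled totals of the tested genes, at which 3 counts are 0.0869 to 0.0973 CPM. Levels per length used the median length of principal GENCODE 29 transcripts. Neighbours were tested genes within 5 Mb, at least 5. Limits given for genes with 0 counts cover counting error only, while standard errors come from the fit and include the spread among libraries.

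Single values of 1 member and of 1 marker gene are not reported here, though counts and sums include them. The members, gene lists and tests were chosen with earlier results of these data known. Named genes were PRAME, the mitochondrial RNAs, complex II, the isoform genes, the 3 called members with the largest and the 3 with the smallest log2 fold change of each complex, members called at 1.5-fold, the highest per length, 9 regulators, and from each list the 2 largest and 2 smallest called values at 5 CPM or more, of which some are shown. Other members and GABPA, GABPB1 were chosen after their values were seen. Alternatives were RLE or total-count scaling, scaling without mitochondrial and rRNA genes, other filters, DESeq2 1.42.0, limma 3.58.1 (voom), a minimum fold of 1.2, a replicate block, each library left out, and removal of the neighbours' shift.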

Additional observations from a re-analysis of the deposited data

How the results depend on the processing

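All 13 mitochondrial mRNAs stayed higher, and none was lower, under every scaling, filter and test tried except the test against a minimum fold of 1.2, which called 4 of them, 9 nuclear members higher, 19 nuclear members lower and 7726 of all genes. That test asks for a larger change by its construction. Leaving out 1 library at a time gave 11390 to 11704 calls over all genes, 13 to 13 mitochondrial mRNAs higher and 0 to 0 lower, 20 to 25 nuclear members higher and 37 to 41 lower. The log2 difference of the mitochondrial to nuclear ratio then ranged over 0.33 to 0.40 in complex I, 0.25 to 0.30 in complex III, 0.16 to 0.20 in complex IV, 0.25 to 0.33 in complex V and 0.26 to 0.31 over all; scaling cancels in these ratios. DESeq2 called 21 nuclear members higher and 38 lower, and limma-voom 24 and 40.

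Replicate numbers are shared by the groups, but same-numbered libraries did not deviate together (correlations -0.06, -0.12 and -0.10). With so few libraries per group these values cannot decide whether the numbers pair them. With the replicate block 13 mitochondrial mRNAs were higher and 23 nuclear members were higher and 39 lower, with 11603 calls over all genes.

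Removing the neighbours' shift turned 9 nuclear members and, among the other genes named, SLIRP, GABPA and MRPS6, as given above. No other alternative tried turned the direction of a named gene that had passed. Small calls were lost for NDUFV1 (-0.06), COX7C (-0.05) and ATP5MK (-0.05) with totals alone, for NDUFAB1 with DESeq2 (0.10), without shPRAME replicate 3 (0.07) and without shCtrl replicate 1 (0.09), 2 (0.09) or 3 (0.10), for COX7C without shPRAME replicate 1 (-0.09) or 2 (-0.06) and shCtrl replicate 3 (-0.09), and for ATP5MK without shCtrl replicate 2 (-0.08). COX4I1, which had not passed, changed sign around 0, up to 0.05 with totals alone, and was called lower with the neighbours' median removed (-0.14; edgeR adjusted p = 7.73e-05). Adding nuclear pseudogene copies of mitochondrial mRNAs was not run, since no such gene was among the identifiers used here. Depth limits the isoforms with few or 0 counts. Replicates within a group differed by more than counting noise, but whether that spread covers separate transductions is not known here.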
